A study of Zea mays with 12 samples.

Results

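The B73 expression tables of a maize seedling study list 45577 features, and 762 of them are non-coding RNA entries whose identifier begins with ENSRNA and whose span is 65 to 90 bp, the length range in which most tRNA genes fall. These 762 members were taken from 1635 ENSRNA features by identifier and span alone, with no measured value in the rule. ENSRNA identifiers are Ensembl's predicted non-coding RNA genes, and the sources used here do not give the RNA type of each one. Of the remaining ENSRNA features, 395 span 91 to 120 bp, 476 are longer and 2 are shorter than 65 bp.

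The study sequenced RNA from seedlings of 2 maize inbreds, B73 and Mo17, at 14 days of age, as 12 samples with 2 per inbred and assay. The groups used here are all B73: 2 libraries of polysome-bound RNA, 2 libraries of m6A-seq (immunoprecipitation of RNA that carries N6-methyladenosine) and 2 libraries of total RNA. The plants were grown in long days with no treatment named, and the labels name no mutation or transgene. They do not say whether the libraries of a group came from separate plants, so every p-value measures only the spread between these samples.

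A tRNA is the adaptor that carries an amino acid to the ribosome and pairs with the codon of the mRNA being read. Plant tRNA genes are transcribed by RNA polymerase III, exist in many copies and can stand in tandem arrays, and their products are folded and heavily modified, which makes them difficult to copy into sequencing libraries. Box C/D small nucleolar RNAs (snoRNAs), which guide ribose methylation of ribosomal RNA in the nucleolus, overlap with tRNAs in length, and in plants they often lie in clusters or inside other genes. Some microRNA precursors are of this length too. Polysomes are mRNAs with several ribosomes bound, and a ratio of polysome to total RNA therefore tells how much of an RNA travels with translating ribosomes, while in whole seedlings fewer cells of a type and less RNA per cell cannot be told apart.

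The spans had 2 groups. The 495 members of 71 to 74 bp made up 65% of the set, with 179 at 74 bp, 144 at 72 bp and 140 at 73 bp. The other large group lay at 80 to 90 bp and held 224 members, with 40 each at 81 and 82 bp and a further local maximum of 32 at 86 bp. Only 42 members fell in between, at 75 to 79 bp. The smallest member spanned 69 bp and no ENSRNA feature spanned 64 or 65 bp, so the lower limit of the rule cut nothing close to it: the nearest features below were 2 of 63 bp with mean total RNA values of 0.966 and 1.95 FPKM, and the 69-bp member was listed at 0 throughout. At the upper limit, the 9 members of 90 bp had mean total RNA values of 0 to 44.8 FPKM and the 15 features of 91 bp just outside had 0 to 38.3 FPKM.

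The 20 members that overlap an annotated microRNA gene do not go with the tRNA reading of the span. They span 80 to 90 bp and lie on the same strand as the microRNA feature, among them precursors of the miR156, miR160, miR166, miR169, miR171, miR395 and miR399 families. Only 7 of the 20 were listed above 0 in any library, with a highest value of 11.5 FPKM. None of the 762 identifiers was matched in the RefSeq gene table, so the amino acid that any of them would carry is not stated here.

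Most members were listed at 0. FPKM (a fragment count scaled to feature length and library size) was above 0 for 87 and 91 of the 762 members in the polysome libraries, against 135 and 128 in the total RNA libraries. At 1 FPKM or more there were 37 and 39 members in polysome RNA, against 90 and 92 in total RNA, and at 10 FPKM or more 14 and 14 against 52 and 56. Polysome RNA therefore listed fewer members than total RNA at each of these levels. The same counts per library over all features are not given here. Over all 4 libraries 162 members (21.3%) were above 0 at least once and 600 never were. Of the 162, 60 were above 0 in every library, 47 in total RNA alone and 16 in polysome RNA alone, the last with no value above 0.559 FPKM. A member listed at 0 can still have reads listed under a gene model at the same position, as described with the overlaps. How many reads stand behind an FPKM value is unknown.

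Detection differed between the size classes, and so did the overlap with gene models. Of the 496 members up to 74 bp, 33 (6.65%) were above 0 in some library, compared with 17 of the 42 members of 75 to 79 bp (40.5%) and 112 of the 224 members of 80 to 90 bp (50%). Among the members that overlap no gene model that order was not seen: 12 of 18 were above 0 up to 74 bp (66.7%), 12 of 26 at 75 to 79 bp (46.2%) and 58 of 97 at 80 to 90 bp (59.8%). The members up to 74 bp were low mainly where a gene model has the same ends and strand, with 18 of 466 above 0 (3.86%). For a test, a feature needed at least 1 FPKM in at least 2 of the 4 libraries. That left 10, 16 and 60 members of these size classes, 86 in all.

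**Figure D1:**
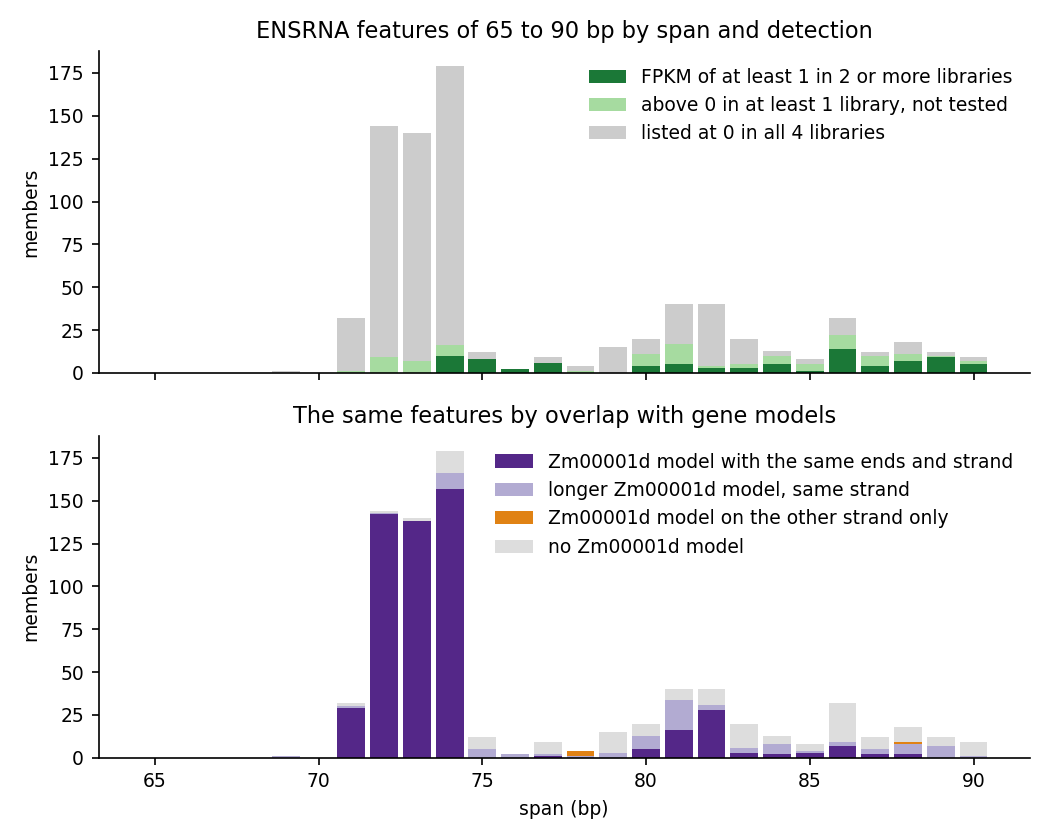
Number of members (vertical axis) at each span in bp (horizontal axis), split in the upper panel by whether any of the 4 B73 libraries lists a value above 0 and in the lower panel by overlap with a Zm00001d gene model. The spans of 71 to 74 bp hold 495 members, of which 466 have a gene model with the same ends and strand.

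Nearly all of the summed signal came from 2 members of 80 bp on chromosome 6, both on the plus strand. ENSRNA049477007 (B73 RefGen_v4, chr6:81288191-81288270) had 5535 and 5609 FPKM in polysome RNA, against 29072 and 29231 FPKM in total RNA. ENSRNA049477011 (chr6:81473522-81473601) had 5332 and 5495 FPKM in polysome RNA, against 29130 and 29112 FPKM in total RNA. Both polysome libraries lay far below both total RNA libraries for each member, and the pair had almost the same values in all 4 libraries. The log2 ratios of polysome to total RNA, on the log2(FPKM + 1) scale, were -2.39 ± 0.13 (SE) for ENSRNA049477007 and -2.43 ± 0.13 for ENSRNA049477011 (adjusted p in limma 7.65e-05 and 7.23e-05). Neither overlaps a Zm00001d gene model. Reads that fit both positions would not be told apart, and the sources used here do not say how such reads were counted.

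All members together held 1.26% of the summed FPKM in each polysome library, against 5.28% and 5.25% in the total RNA libraries. The means were 1.257 ± 0.0013% in polysome RNA and 5.265 ± 0.0175% in total RNA (SD, n = 2 each). The pair on chromosome 6 made up 94.3% and 94.6% of the members' sum in polysome RNA, against 96.1% and 95.9% in total RNA. Without it the members held 0.0698 ± 0.0035% in polysome RNA and 0.211 ± 0.0041% in total RNA (SD, n = 2 each). The groups did not overlap with or without the pair, and with 2 libraries in each group a two-sided exact permutation test cannot give a p below 0.3333.

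Most tested members were lower in polysome RNA. A call required an adjusted p under 0.05 in a limma fit over 19342 features, with Benjamini-Hochberg adjustment over all of them, and a log2 ratio of at least 1 in size. Of the 86 tested members, 74 were lower in polysome RNA, 1 was higher and 11 were not called, while 5.36% of all tested features were called lower and 16.6% higher. The median log2 ratio of the tested members was -2.67, with quartiles of -3.68 and -1.34, compared with 0.29 over all tested features. When the libraries were scaled so that the median log ratio of all features came to -0.03, 1763 features were lower and 1309 higher, against 1036 and 3220 in the deposited scale, and the median of the members was -2.82 with 76 lower and none higher.

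The count depends on how members reached the test. The 47 members that passed only through both total RNA libraries were at a low value in polysome RNA by construction. All 47 were called lower, compared with 49.9% of the 768 features that passed this way. The filter fixed their direction, so no support is drawn from them. Among the 31 members at 1 FPKM or more in all 4 libraries, 21 (67.7%) were lower and 1 was higher, compared with 3.45% lower and 17.9% higher of the 16234 features of that kind. By mean level, 37 tested members averaged at least 10 FPKM over the 4 libraries. Of these, 27 were lower (73%), compared with 6.51% of 6544 features at that level. This set includes members that passed through total RNA alone, such as ENSRNA049465846 and ENSRNA049475525, whose direction the filter fixed. How many of the 37 did so was not counted, so no support is drawn from this share. For comparison, 142 of 158 tested features of 91 to 120 bp were lower with a median of -2.41, and 148 of 207 longer ones with a median of -2.10. Among the 18878 tested Zm00001d models of any length the median was 0.31 and 667 were lower. A test of members against these classes was not made.

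**Figure D2:**
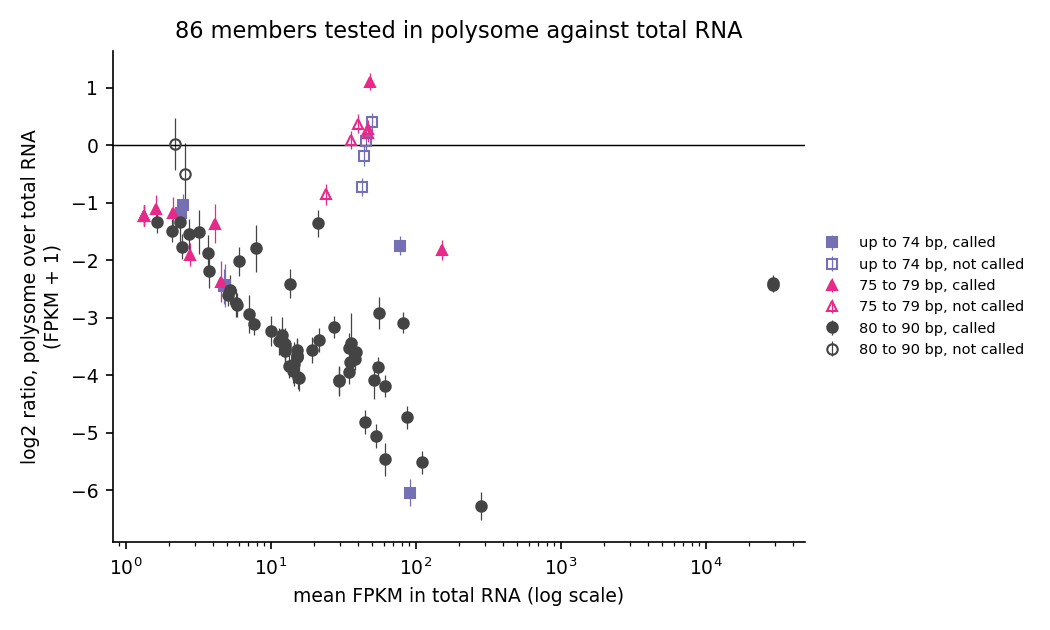
Log2 ratio of polysome to total RNA on the log2(FPKM + 1) scale (vertical axis, bars are limma standard errors) against mean FPKM in total RNA (horizontal axis, log scale) for the 86 tested members, coloured by size class, with filled symbols for called members. Members of 80 to 90 bp had the lowest median of the size classes, -3.42, and the 11 members that were not called include most of those of 77 bp.

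The class of 80 to 90 bp had the lowest median ratio of the 3 size classes. Of its 60 tested members 58 were lower, compared with 5.36% of all tested features, and the median log2 ratio of the 60 was -3.42. The 2 that were not called, ENSRNA049469740 of 89 bp and ENSRNA049479509 of 86 bp, lie inside the microRNA genes zma-MIR156e and zma-MIR156k, precursors of miR156, which represses SPL transcription factors and keeps shoots in the juvenile phase. ENSRNA049479509 had 2.67 and 1.32 FPKM in polysome RNA, against 0.793 and 3.57 FPKM in total RNA. ENSRNA049469740 had 0.878 and 1.40 FPKM in polysome RNA, against 0.619 and 4.49 FPKM in total RNA. Polysome and total RNA overlapped for both of these. The third tested member inside a microRNA gene, ENSRNA049461886 in zma-MIR156d, was among those called lower, with 1.68 and 1.09 FPKM in polysome RNA, against 4.34 and 11.5 FPKM in total RNA. The 7 tested ENSRNA features of 91 bp, just outside the rule, had a median of -3.51. With twins summed the medians were -3.38 at 80 to 90 bp and -2.48 up to 74 bp. Members that passed through total RNA alone were not counted by size class, so no difference between the classes is drawn.

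The lowest ratios belonged to members that were high in total RNA and under 5 FPKM in polysome RNA. ENSRNA049471198, 87 bp (chr1:99779457-99779543, minus strand), had 1.88 and 3.65 FPKM in polysome RNA, against 286.5 and 277.5 FPKM in total RNA. Its log2 ratio of -6.27 ± 0.24 (SE) was the lowest of the tested members on the log2(FPKM + 1) scale (limma, adjusted p = 2.55e-05). With 0.1 added in place of 1 it was -6.69, and ENSRNA049465846 and ENSRNA049475525 had lower ratios, of -7.68 and -7.22. A neighbour of ENSRNA049471198 on the same strand, ENSRNA049471190 of 89 bp (chr1:99779224-99779312), starts 233 bp from it. This neighbour had 1.84 and 1.12 FPKM in polysome RNA, against 108.0 and 113.5 FPKM in total RNA. The neighbours shared the wide gap between the assays, and the second one had a log2 ratio of -5.51 ± 0.20 (limma, adjusted p = 1.92e-05).

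Members on other chromosomes had the same form. ENSRNA049475525, 81 bp (chr8:164529700-164529780), had 0.853 and 0.0785 FPKM in polysome RNA, against 67.0 and 56.1 FPKM in total RNA. ENSRNA049476252, 86 bp (chr7:4985062-4985147), had 0.429 and 0.850 FPKM in polysome RNA, against 52.3 and 53.4 FPKM in total RNA. ENSRNA049476306, 86 bp (chr7:3197780-3197865), had 2.71 and 1.96 FPKM in polysome RNA, against 80.7 and 93.6 FPKM in total RNA. In these 3 members no polysome library came near a total RNA library, and the log2 ratios were -5.46 ± 0.29, -5.05 ± 0.21 and -4.73 ± 0.20 (SE). ENSRNA049468327, 88 bp (chr4:143640137-143640224), had 2.24 and 2.59 FPKM in polysome RNA, against 55.5 and 66.9 FPKM in total RNA, a log2 ratio of -4.18 ± 0.19. The limma adjusted p-values of these 4 members lay between 2.75e-05 and 7.33e-05. Of these, ENSRNA049475525 and ENSRNA049476252 were under 1 FPKM in both polysome libraries. They passed the filter through total RNA alone, which fixed their direction.

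The only higher call came from the members of 77 bp. Of the 9 members of 77 bp, 6 were tested, 1 was higher, none was lower and the median log2 ratio was 0.25. ENSRNA049477439 (chr6:25408419-25408495, minus strand) was the only member called higher, with 103.1 and 106.1 FPKM in polysome RNA, against 51.3 and 44.9 FPKM in total RNA. Both polysome libraries exceeded both total RNA libraries, by a log2 ratio of 1.11 ± 0.15 (limma, adjusted p = 0.00257). The ratio was 0.72 and 0.50 under the other scalings, short of the size required. Without total RNA replicate 2 it was 1.01, with a limma adjusted p of 0.00701 where the filter was applied to the 3 libraries left, and of 0.0502 where the same features were tested as with all 4. All 6 tested members of 77 bp were at 1 FPKM or more in all 4 libraries. The 77-bp members were singled out after their values were seen, and no difference from other spans was tested.

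The other tested members of 77 bp were not called. ENSRNA049477174 (chr5:215780255-215780331) had 61.2 and 53.5 FPKM in polysome RNA, against 45.8 and 47.3 FPKM in total RNA. ENSRNA049474661 (chr10:141537870-141537946) had 57.0 and 52.4 FPKM in polysome RNA, against 47.7 and 46.3 FPKM in total RNA. ENSRNA049477727 (chr7:46260386-46260462) had 56.5 and 48.6 FPKM in polysome RNA, against 38.6 and 41.5 FPKM in total RNA. In the deposited scale the polysome libraries stood slightly above the total RNA libraries in these 3: the log2 ratios were 0.29, 0.21 and 0.38, each with a standard error near 0.15 (limma, adjusted p = 0.175, 0.290 and 0.104). Under the scalings by the median of log ratios and by equal sums, the ratio turned to -0.095 and -0.31 for ENSRNA049477174 to -0.17 and -0.39 for ENSRNA049474661, and to -0.0067 and -0.22 for ENSRNA049477727. ENSRNA049471872 on chromosome 1 had 39.6 and 37.2 FPKM in polysome RNA, against 37.1 and 34.8 FPKM in total RNA, a log2 ratio of 0.09 that turned to -0.29 and -0.51 under those scalings. ENSRNA049463137 on chromosome 10 was on the other side, with 12.4 and 13.6 FPKM in polysome RNA, against 21.9 and 26.5 FPKM in total RNA. Its log2 ratio of -0.85 was not called, but under those scalings it was -1.22 and -1.43 and was called lower.

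Some members of 74 bp were not called either, and some of these neighboured members of 77 bp. ENSRNA049477722 (chr7:46259614-46259687) had 69.6 and 62.7 FPKM in polysome RNA, against 54.0 and 46.0 FPKM in total RNA. It was not called, with a log2 ratio of 0.40 ± 0.16 (limma, adjusted p = 0.0927) that turned to -0.21 under equal sums. It starts 772 bp from the 77-bp member ENSRNA049477727 on the same strand. The same distance of 772 bp separates ENSRNA049474675, 74 bp (chr10:141537098-141537171), from the 77-bp member ENSRNA049474661. ENSRNA049474675 had 47.8 and 47.1 FPKM in polysome RNA, against 49.1 and 41.5 FPKM in total RNA, and the groups overlapped. ENSRNA049475327, 74 bp on chromosome 10, had 42.2 and 35.0 FPKM in polysome RNA, against 47.9 and 40.0 FPKM in total RNA, and ENSRNA049478461, 74 bp on chromosome 9, had 25.3 and 25.6 FPKM in polysome RNA, against 44.0 and 41.3 FPKM in total RNA. Neither was called (log2 ratios -0.18 and -0.72; ENSRNA049478461 was called under both other scalings, at -1.10 and -1.32), which completes the 11 tested members without a call: 5 of 77 bp, 4 of 74 bp and the 2 in MIR156 genes. The pairs on chromosomes 7 and 10 thus had the same spans and spacing, a likeness seen only after their values were known.

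On chromosome 5, ENSRNA049446227, 74 bp (chr5:215772153-215772226), starts 8102 bp from the 77-bp member ENSRNA049477174. It had 24.8 and 20.7 FPKM in polysome RNA, against 78.2 and 78.6 FPKM in total RNA. Here the 74-bp member was lower in polysome RNA, by a log2 ratio of -1.74 ± 0.16 (limma, adjusted p = 7.65e-04), and the 77-bp neighbour was not called. ENSRNA049478375, 75 bp (chr6:14328720-14328794), was lower as well, with 45.2 and 39.1 FPKM in polysome RNA, against 134.7 and 170.2 FPKM in total RNA, a log2 ratio of -1.82 ± 0.18 (limma, adjusted p = 8.68e-04).

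**Figure D3:**
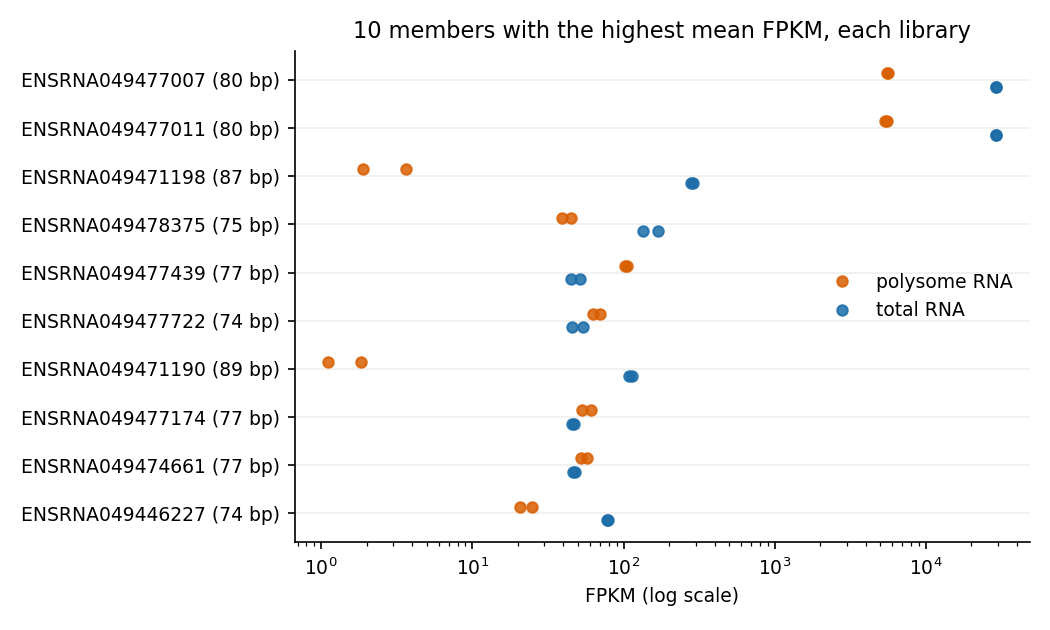
FPKM (horizontal axis, log scale) of the 10 members with the highest mean over the 4 libraries, with a point for each polysome library and each total RNA library. The pair of 80 bp on chromosome 6 lies above 5000 FPKM in every library, and only the members of 77 bp and ENSRNA049477722 have polysome points to the right of their total RNA points in this deposited scale.

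Gene models of the Zm00001d series overlap 621 of the 762 members (81.5%), and each of the 621 lies wholly inside at least 1 model. The overlap is on the same strand for 617 members and on the opposite strand alone for 4, while 141 members (18.5%) overlap no model. In 535 cases (70.2%) a model has exactly the start, end and strand of the member, so that the tables list the same locus under 2 identifiers. Such a twin was present for 466 of the 495 members of 71 to 74 bp (94.1%) and for 69 of the 266 members of 75 to 90 bp (25.9%). A further 82 members lie on the same strand inside a longer model without having a twin.

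Where twins exist, the gene model usually carries the signal. The model was above 0 and the member at 0 in all libraries for 225 of the 535 pairs, both were above 0 for 19, only the member for 11, and neither for 280. The twin models summed to 121 and 117 FPKM in polysome RNA, against 2015 and 1938 FPKM in total RNA. The ENSRNA members of the same pairs summed to 26.9 and 23.3 FPKM in polysome RNA, against 92.3 and 87.9 FPKM in total RNA. A mean total RNA value was higher for the model in 223 pairs and for the member in 7. A member with a twin was above 0 in 30 of 535 cases (5.61%), compared with 82 of the 141 members that overlap no model (58.2%) and 50 of the 82 inside a longer model on the same strand (61%). The sources used here do not say how the counting tool split reads between 2 identifiers of 1 locus.

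The sum of both identifiers at each locus changes the picture of detection. With twins summed, 387 of the 762 loci (50.8%) were above 0 in some library, compared with 162 for the ENSRNA identifiers alone, and 227 of the 496 loci up to 74 bp, compared with 33. Of 131 tested loci, 115 were lower in polysome RNA, 1 was higher and 15 were not called, while 5.34% of all tested features were lower and 16.6% higher in that fit. The median log2 ratio was -2.74. In the class up to 74 bp, 47 of 52 tested loci were lower with a median of -2.48, where the ENSRNA identifiers alone gave 6 of 10 and a median of -1.11. Most twin models reached the test through total RNA alone: 40 of the 47 tested did, and all 40 were lower.

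**Figure D4:**
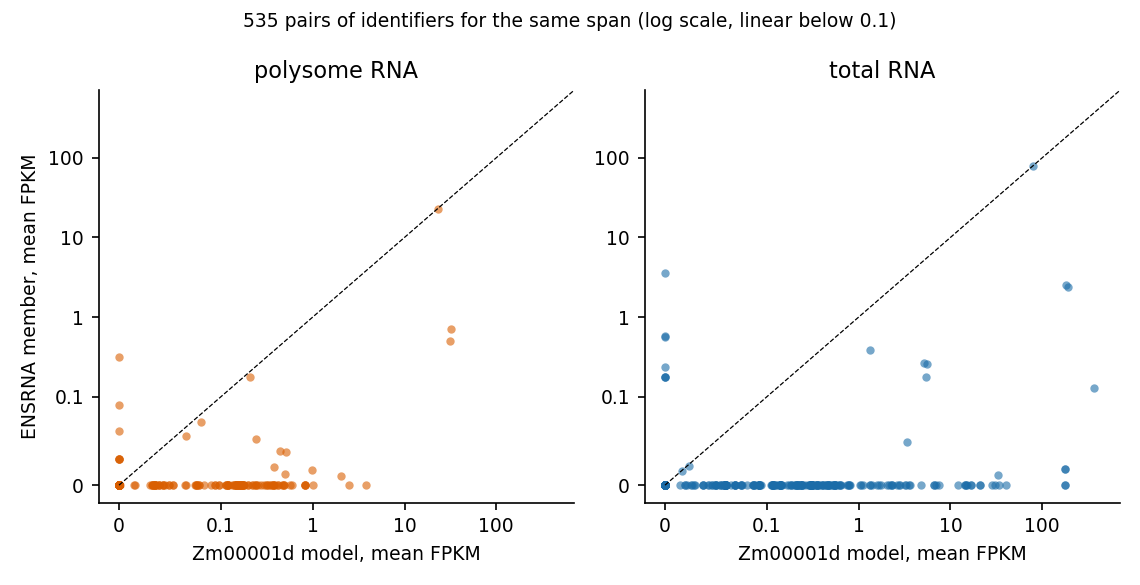
Mean FPKM of the ENSRNA member (vertical axis) against mean FPKM of the Zm00001d model with the same start, end and strand (horizontal axis) for 535 pairs, in polysome RNA (left) and total RNA (right), on log scales that are linear below 0.1, with a dashed line of equality. In total RNA the model is higher in 223 pairs and the member in 7, and the pair Zm00001d018165 and ENSRNA049446227 lies on it.

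The locus with the largest twin signal was 71 bp on chromosome 5 (chr5:215848444-215848514, plus strand). Its model Zm00001d018169 had 1.51 and 2.55 FPKM in polysome RNA, against 351.7 and 373.0 FPKM in total RNA, a log2 ratio of -6.93 ± 0.21 (limma, adjusted p = 1.08e-05). The member at the same bases, ENSRNA049446214, had 0.0210 and 0 FPKM in polysome RNA, against 0.116 and 0.141 FPKM in total RNA. The same locus thus appears as one of the lowest ratios under one identifier and as too low to test under the other. On chromosome 7, model Zm00001d022029 (chr7:168307507-168307580) had 33.4 and 28.8 FPKM in polysome RNA, against 196.1 and 184.3 FPKM in total RNA. Its twin ENSRNA049447361 had 0.550 and 0.454 FPKM in polysome RNA, against 2.45 and 2.36 FPKM in total RNA. On chromosome 1, model Zm00001d029951 (chr1:96159180-96159253) had 33.0 and 31.5 FPKM in polysome RNA, against 187.3 and 179.4 FPKM in total RNA. The models on chromosomes 7 and 1 had log2 ratios of -2.58 ± 0.15 and -2.47 ± 0.14, and limma gave adjusted p-values of 1.21e-04 and 1.04e-04.

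The pair Zm00001d018165 and ENSRNA049446227 was the only one that had values equal within 1% under both identifiers. The model had 24.9 and 20.8 FPKM in polysome RNA, against 78.4 and 78.8 FPKM in total RNA, next to the member's values given above.

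Distant loci repeated the same values. Members ENSRNA049456320, ENSRNA049459041, ENSRNA049466858 and ENSRNA049472608, of 75 bp on 4 chromosomes, were each listed at 0 in both polysome libraries, against 1.21 and 1.48 FPKM in total RNA. Among the twin models, 80 fell into 30 groups with equal values in every library, and 28 of these groups spanned several chromosomes. Models Zm00001d046858, Zm00001d021381, Zm00001d013930 and Zm00001d019295, of 73 bp, came close to that: each had 0.773 and 0.859 FPKM in polysome RNA, against 188 and 169 FPKM in total RNA to the nearest whole number. Such loci cannot be counted as separate measurements, and no source used here tells how reads that fit several places were treated.

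Longer models on the same strand hold 95 members in 68 models, whose spans run from 627 to 43188 bp. Of these members 56 were above 0 in some library and 24 were tested. All 24 were lower, but 20 of them passed the filter through total RNA alone, which fixes that direction, and 1 was at 1 FPKM or more in all 4 libraries. Over all tested features 5.36% were lower. For the 24 pairs in which member and host model were both tested, the median log2 ratio was -2.61 for the members and 1.13 for the models. The model's ratio exceeded the member's in 22 of 24 pairs. In 20 of the 24 pairs the member had passed through total RNA alone, which fixed its ratio as low. No difference between members and their models is therefore drawn from these medians or this count. In the deposited scale, the model was called higher and the member lower in 13 pairs. In each of these the member had passed through total RNA alone. In 8 pairs the model was not called, and in 3 both were lower. Higher calls over all features fell from 3220 to 1309 and 675 under the scalings by the median of log ratios and by equal sums. The calls of the models in the 13 pairs under those scalings are not given here. The 24 pairs cover 23 members and 15 models, and pairs that share a model are not independent.

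The values of a model on chromosome 2 and the members in it are given as a description. Zm00001d005334, 4020 bp, had 76.4 and 61.1 FPKM in polysome RNA, against 25.1 and 24.3 FPKM in total RNA, a log2 ratio of 1.43 ± 0.17 (limma, adjusted p = 0.00174). It holds 5 members of 89 bp, each 214 bp from the next, between positions 169840781 and 169841725. The one with the highest mean, ENSRNA049476004, had 0.388 and 0.339 FPKM in polysome RNA, against 16.4 and 14.0 FPKM in total RNA, a log2 ratio of -3.57 ± 0.20 (limma, adjusted p = 1.03e-04). ENSRNA049476008 had 0 and 0.411 FPKM in polysome RNA, against 11.04 and 14.0 FPKM in total RNA. The remaining 3, ENSRNA049475996, ENSRNA049476001 and ENSRNA049476010, were listed at 0 in both polysome libraries, against values of 1.92 to 7.88 FPKM in total RNA. All 5 passed the filter through total RNA alone, so the filter fixed their direction and no support is drawn from their calls. The model around them was called higher in the deposited scale.

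The host models of the members with the highest FPKM, which the rule for named pairs picks out, were lower or were not called. ENSRNA049465846, 74 bp (chr1:50881178-50881251), lies in Zm00001d022725 and had 0.690 and 0.146 FPKM in polysome RNA, against 84.0 and 97.4 FPKM in total RNA. Its log2 ratio was -6.04 ± 0.24, and the model itself was lower too, with 0.216 and 0.144 FPKM in polysome RNA, against 6.12 and 5.48 FPKM in total RNA (limma, adjusted p = 2.57e-05 for the member and 3.93e-04 for the model). ENSRNA049476313, 86 bp (chr7:3204583-3204668), had 4.43 and 0.914 FPKM in polysome RNA, against 24.0 and 47.5 FPKM in total RNA, inside Zm00001d001078, which had 0.396 and 0.523 FPKM in polysome RNA, against 24.3 and 21.9 FPKM in total RNA. Both identifiers were lower at these loci. However, ENSRNA049465846, Zm00001d022725 and Zm00001d001078 were each under 1 FPKM in both polysome libraries. They passed the filter through total RNA alone, which fixed their direction. ENSRNA049470983, 80 bp (chr3:126864492-126864571), had 0.991 and 1.35 FPKM in polysome RNA, against 19.7 and 23.5 FPKM in total RNA, inside Zm00001d041550, which had 45.7 and 34.8 FPKM in polysome RNA, against 61.9 and 63.1 FPKM in total RNA. That member was lower (log2 ratio -3.38 ± 0.21) and its model missed the size required (-0.64; -1.02 and -1.24, and called, under the other scalings). The model Zm00001d001080, which holds ENSRNA049476252, had 7.70 and 5.95 FPKM in polysome RNA, against 9.75 and 10.1 FPKM in total RNA, and was not called.

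Along the chromosomes, members were counted as a cluster where at least 3 followed each other with gaps of at most 5000 bp. There were 18 clusters with 105 members (13.8%), 49 pairs and 559 single members. In 17 of the 18 clusters all members lay on 1 strand. Chromosome 2 held 157 members, the most of any chromosome, and chromosome 10 held 38, the fewest.

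Most clusters fell into 2 kinds by span, and the rest were mixed. In 5 clusters all members spanned up to 74 bp, and 1 of their 56 members was above 0. In 11 clusters all members spanned 75 bp or more, and 32 of their 43 members were above 0. All of the 56 have a twin model and none of the 43 does, so span and the presence of a twin cannot be told apart here. In the short-span clusters on chromosomes 4, 6 and 9 every twin model was above 0 in some library. Across all clusters, 37 of 105 members were above 0 (35.2%), compared with 125 of the 657 outside (19%). The 18 tested members in clusters were all lower, but 15 of them had passed the filter through total RNA alone, and 2 were at 1 FPKM or more in all 4 libraries. Outside clusters, 56 of 68 tested members were lower and 1 higher, and 32 of the 68 had passed through total RNA alone. No difference between members in and outside clusters is drawn from these counts.

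The largest cluster is a tandem array of 36 members of 74 bp on the minus strand of chromosome 2 (chr2:220035678-220054165). The distance from start to start was 472 bp in 28 of its 35 intervals and between 471 and 945 bp in the others. A second array of 10 members of the same span and strand lies 7873 bp on (chr2:220061965-220067232). All 46 members have a twin model, and every member and every twin was listed at 0 in all 4 libraries. A different maize assembly, NAM-5.0, holds a run of 36 neighbouring genes for an isoleucine tRNA, TRNAI-AAU, also on chromosome 2, the longest run of 1 tRNA name among the RefSeq genes. The identifiers are not paired between the assemblies, so whether these are the same genes cannot be said.

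Clusters of longer members ranged widely in level. A cluster of 4 members of 86 to 90 bp on chromosome 10 (chr10:145465753-145466318), 3 of which overlap MIR395 genes, was listed at 0 in every library. The 5 members inside Zm00001d005334 form another cluster. On chromosome 6, 4 members of 86 to 90 bp stand on the minus strand within 1152 bp (chr6:92504959-92506110) and overlap no model. The highest, ENSRNA049479424 of 90 bp, had 0.733 and 0.521 FPKM in polysome RNA, against 49.0 and 40.6 FPKM in total RNA, a log2 ratio of -4.81 ± 0.20 (limma, adjusted p = 2.89e-05). It passed the filter through total RNA alone, which fixed that direction. The other members, ENSRNA049479467, ENSRNA049479461 and ENSRNA049479518, were lower too, with log2 ratios of -3.83, -3.76 and -1.88. Of these, ENSRNA049479467 and ENSRNA049479518 had also passed the filter through total RNA alone, which fixed their direction. On chromosome 5, 5 members of 80 to 87 bp follow each other at 216 to 217 bp (chr5:70605204-70606157) inside the model Zm00001d014972 of 3553 bp. All 5 were above 0 in some library, but their mean total RNA values of 0.0645 to 1.20 FPKM were too low for the test. The highest of them was ENSRNA049458582.

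**Figure D5:**
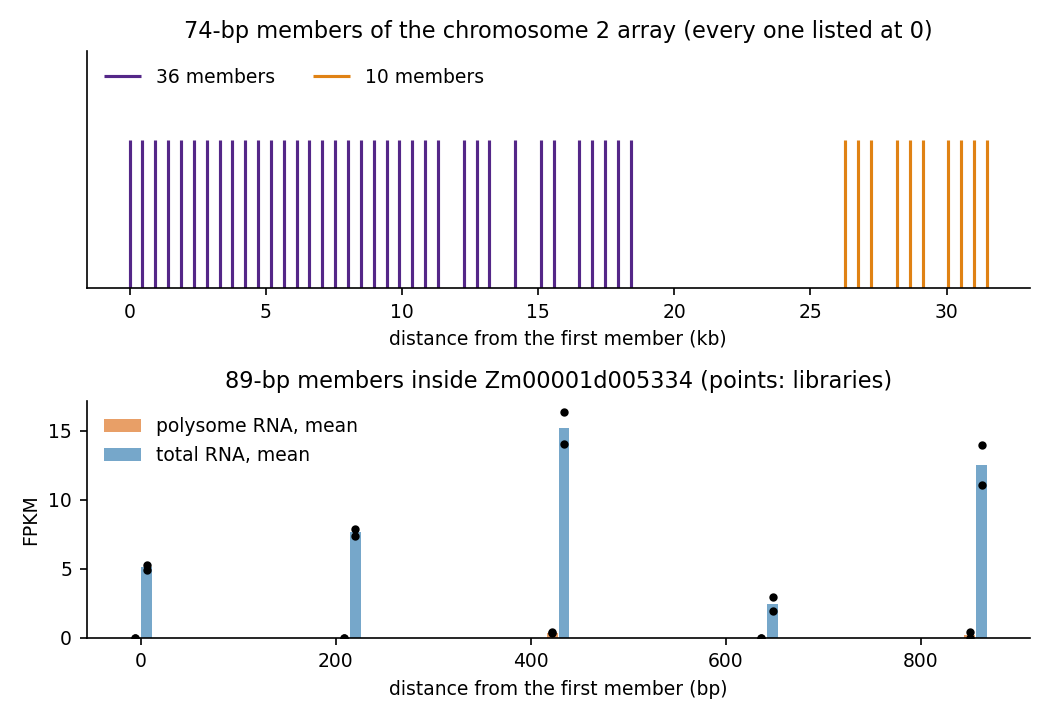
Upper panel: positions of the 46 members of 74 bp in the arrays of 36 and 10 on chromosome 2, as distance in kb from the first member. Lower panel: mean FPKM (bars) and single libraries (points) of the 5 members of 89 bp inside Zm00001d005334, by distance in bp from the first, where total RNA exceeds polysome RNA at each of the 5.

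Members overlapped an m6A peak in 3 cases over both libraries. The 2 B73 m6A-seq libraries had 17399 and 16161 peaks, listed by the authors for each library, and 2 members (0.262%) overlapped a peak in replicate 1 and 1 member (0.131%) in replicate 2. Of all 45577 features, most of them far longer, 25.0% overlapped a peak in each replicate. Of the 873 other ENSRNA features and the 1710 Zm00001d models of 65 to 90 bp without a member at the same ends, 0 did in either replicate. ENSRNA049444705, 88 bp (chr4:199989766-199989853), overlapped a peak in both, with the authors' fold enrichments of 10.1 and 4.87. It lies inside Zm00001d052763, a model of 7932 bp, and had 0.305 and 0.317 FPKM in polysome RNA, against 6.75 and 0.397 FPKM in total RNA. Its total RNA libraries were far apart, and it was not tested. ENSRNA049450817, 71 bp (chr9:91945925-91945995), overlapped a peak in replicate 1 alone, with the authors' fold enrichment of 5.91, and was listed at 0 in every library. Its twin model Zm00001d046484 was listed at 0 as well.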

How the data were processed

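The deposited FPKM values per feature were made by the authors from polysome and total RNA libraries. Per the submitters' processing notes, the tools were Trimmomatic 0.35, HISAT2 and MACS2, with build B73 RefGen_v4. Annotation, counting tool, strand setting and the treatment of reads that fit several places are not stated in the sources used here, nor are the fragment sizes kept in the libraries. In the m6A peak lists, the authors' columns hold a score, a fold ratio and −log10 p and q values for each peak. No sequences were used.

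FPKM was analysed with R 4.3.3 and limma 3.58.1 (trend) as log2(FPKM + 1), on features with at least 1 FPKM in at least 2 of 4 libraries, with 2 residual degrees of freedom. Overlaps (1 bp or more) and clusters were computed with Python 3.11.15 and pandas 2.3.3. For 1 feature, Zm00001d020609, the span differed between tables, and it was left out. Mo17 files were not used. The fit was tested on simulated data. A first simulation, drawn with the raw spread of each feature, recovered fewer changed features than the limit set for it and so failed. The simulation, not the fit, was then changed to limma's moderated spread, and it passed. Changes were placed only in features above a set mean level, so the pass does not cover members below that level. No block was used in the main fit, since the labels do not say that the replicate numbers pair the libraries. Same-numbered polysome and total RNA libraries deviated with r = -0.135 over 19342 features, across genes and not replicates. Depth is unknown, so no counting intervals are given. Lists of tRNA synthetase and tRNA processing genes had 0 measured members, since 0 Zm00001d identifiers matched the RefSeq table.

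Named members were the 10 with the highest mean FPKM, the 8 lowest and 8 highest ratios among those called with groups that do not overlap, the largest clusters with their top member, members at m6A peaks, the 5 same-strand pairs with a model of highest member FPKM, and the edges of the span rule. Others were chosen after their values were seen: the 77-bp and 74-bp members outside the top 10, the microRNA loci, the twin models, Zm00001d005334 with its members, and the chromosome 6 cluster. Members and lists were chosen with earlier results of these data known. Alternatives covered the pseudocount, filter, scaling, each library left out, the replicate block, span limits, overlaps, cluster gaps and peak overlap.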

Additional observations from a re-analysis of the deposited data

How the results depend on the processing

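The count of 74 lower members was 47 with a minimum of 5 FPKM, 47 for members that overlap no Zm00001d model, 16 for spans of 70 to 76 bp and 115 with twins summed. It was 71 without either polysome library; a group left with 1 library is assumed to vary like the other. Without total RNA replicate 1 or 2 it was 28 or 26, of 39 or 38 tested, because fewer members then pass the filter; with the same features tested it was 72 and 68. The higher call was lost (0 members) under both other scalings, for spans of 70 to 76 and 80 to 90 bp, and without total RNA replicate 2 with the same features tested. The median log2 ratio of -2.67 was -4.20 and -1.49 with pseudocounts of 0.1 and 5, -0.76 with no filter, -3.50 with a minimum of 5 FPKM, -2.82 and -3.04 under the scalings by the median of log ratios and by equal sums, -2.93 without overlap, -1.23 and -3.42 for spans of 70 to 76 and 80 to 90 bp. With libraries left out it ranged between -2.85 and -2.41, negative throughout, and was -2.57 and -2.69 without polysome replicates 1 and 2.

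The members' share of FPKM was 1.67% in polysome RNA and 12.0% in total RNA with microRNA and other ENSRNA features left out of the total, 1.25% and 5.23% for members without overlap, 0.0698% and 0.211% without the top 2, and 0.0317% and 0.140% without the top 10. The 117 members above 0 in both total RNA libraries became 237 with twins summed. Of the 2 members at m6A peaks, 1 remained by summit or without m6A replicate 1, and within 100 bp there were 8. Among single members, the log2 ratio reversed to -0.21 for ENSRNA049477722 (equal sums), to -0.095 and -0.31 for ENSRNA049477174 and to -0.17 and -0.39 for ENSRNA049474661 (both scalings); none was called. Of 24 named features with a fit, 16 had a value under each of 16 alternative fits, and 10 of those kept direction and call in all. The other 8 kept both wherever they were tested: 7 failed the filter without either total RNA library, among them ENSRNA049465846, ENSRNA049475525, ENSRNA049476252, ENSRNA049479424 and ENSRNA049476004, and Zm00001d018165 has no value of its own with twins summed.

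With the replicate block, 74 members were lower and 1 higher, and the 74 were the same members; a block with crossed numbers gave the same counts. That block, the summed twins, the share without the top 2 and the fits with the same features tested were chosen after seeing the data. Counts of overlaps and clusters stayed within 1.5 times of the reported ones. The cause of each change was not tested unless stated. Reads behind low FPKM values are unknown, which limits what a listed 0 shows.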

Other observations

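Short Zm00001d gene models without a member at the same ends had the same form. There are 1710 such models of 65 to 90 bp, 639 of them above 0 in some library. The test took 155 of these: polysome RNA was lower in 127 (81.9%), higher in 2 (1.29%), and the median of the log2 ratios was -2.52. Over all tested features 5.36% were lower and 16.6% higher. How many of the 155 passed the filter through total RNA alone, which fixes the direction, was not counted. The highest were 3 models of 72 bp on different chromosomes. Zm00001d044070 had 17.9 and 17.2 FPKM in polysome RNA, against 2893 and 2663 FPKM in total RNA, with -7.22 ± 0.14 (SE) as its log2 ratio and an adjusted p of 4.53e-06 in limma. Zm00001d004752 had 18.6 and 17.7 FPKM in polysome RNA, against 2841 and 2616 FPKM in total RNA. Zm00001d017105 had 17.9 and 17.4 FPKM in polysome RNA, against 2840 and 2615 FPKM in total RNA. These 3 models had nearly the same values in each library and lie on chromosomes 3, 2 and 5.

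The models called higher were both of 73 bp. Zm00001d050688 (chr4:115370107-115370179) had 55.2 and 56.5 FPKM in polysome RNA, against 24.6 and 26.4 FPKM in total RNA, a log2 ratio of 1.10 ± 0.15 (limma, adjusted p = 0.00267). Zm00001d045714 (chr9:34856568-34856640) had 2.97 and 3.62 FPKM in polysome RNA, against 1.44 and 0.672 FPKM in total RNA, a log2 ratio of 1.09 ± 0.25 (limma, adjusted p = 0.0162). Both polysome libraries exceeded both total RNA libraries in each. These models were chosen after their values were seen. Their ratios are in the deposited scale, and those under the other scalings are not given here. The member ENSRNA049477439, at 1.11 in the deposited scale, fell to 0.72 and 0.50 under those scalings and was not called.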
